A study of Mus musculus with 2 samples.

Results

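Glycolysis and the entry of pyruvate into mitochondria are served in male germ cells by enzyme isoforms that are little used elsewhere in the body. The genes described here are 8 of the 31053 genes in the count tables, chosen by symbol: Hk1, Aldoart1, Gapdhs, Pgk2, Pgam2, Eno4, Ldhc and Pdha2. Hexokinase 1 phosphorylates glucose, and the gene also gives rise to testis transcripts with their own first exons. Aldoart1 is an aldolase retrogene, Gapdhs the sperm glyceraldehyde-3-phosphate dehydrogenase bound to the fibrous sheath of the flagellum, Pgk2 the testis phosphoglycerate kinase, Pgam2 the muscle-type phosphoglycerate mutase and Eno4 the sperm enolase. Ldhc is the testis lactate dehydrogenase, and Pdha2 the testis alpha subunit of pyruvate dehydrogenase, which turns pyruvate into acetyl-CoA. Pgk2 and Pdha2 are autosomal retrogenes of the X-linked Pgk1 and Pdha1, and the X chromosome is transcriptionally silenced in pachytene spermatocytes. Glycolysis in the sperm tail supplies ATP for motility, whereas pachytene spermatocytes are known to use lactate and pyruvate that Sertoli cells provide.

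The study was single-cell RNA-seq (10x Chromium, 3' ends) of testis germ cells of adult C57BL/6 mice, with 1 library of genotype WT and 1 of genotype Zfp541-/-, and no further treatment or allele named in the labels for either. Zfp541 encodes a zinc finger protein of meiotic male germ cells. The titles name whole testis and the source field tetraploid germ cells, which the protocol obtained by flow cytometry. Unique molecular identifiers (UMIs, each standing for 1 captured transcript) were summed over the cells of each library in each stage of the authors' annotation and expressed as CPM, the count of a gene among 1000000 UMIs.

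Annotated cells numbered 8420 in WT, with 108612781 UMIs in all, and 8833 in the Zfp541-/- library, with 119675250 UMIs. The 15 annotated stages run from differentiating spermatogonia (Diff.Spg1 to Diff.Spg3) through preleptotene (pre.L), leptotene (L), zygotene (Z), early, mid and late pachytene (eP, mP, lP), diplotene (D) and the first meiotic division (MI) to round (RS.1 to RS.3) and elongated spermatids (ES). Only 122 WT cells preceded pachytene, against 3210 in the other library, and they are pooled below as "before pachytene". From diplotene on, the Zfp541-/- library held 13 cells, all annotated as diplotene, so MI and spermatid values are from WT alone. The median UMI count per cell was 2.35 times as high in the Zfp541-/- library as in WT in mP, and 2.57 times in lP. Zfp541 itself was not lower there, at 28.1 CPM in WT and 81.9 CPM in the other library in mP. No source used here gives the deleted part of the gene, and a 3' tag outside it checks nothing, so the second library is called the knockout-labelled library by its label alone. In both libraries the summed Sertoli, Leydig, myoid, endothelial, macrophage and red cell markers were each at most 4.12 CPM in mP and lP, whereas 10 pachytene markers summed to 4051 CPM in WT mP and 4041 CPM in knockout-labelled mP. With 1 library per genotype no test was possible: every interval below is a 95% interval for counting error only, and variation between mice is not covered.

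On GRCm38, Ldhc lies on chromosome 7 (46861203 to 46878142, plus strand, 5 annotated transcripts), close to Ldha on the same chromosome (46841475 to 46855627). Gapdhs is also on chromosome 7 (30729775 to 30743681, minus strand), Hk1 on chromosome 10 (62268855 to 62379908, minus strand, 20 transcripts), Pgam2 on chromosome 11 (5801640 to 5803733, minus strand, 3 exons) and Eno4 on chromosome 19 (58943425 to 58971421, plus strand). Pgk2 on chromosome 17 (40207015 to 40208640), Aldoart1 on chromosome 4 (72850583 to 72852634) and Pdha2 on chromosome 3 (141210004 to 141212355), all on the minus strand, are single-exon genes, the form a retrogene takes. In the last 500 bases of the annotated transcripts, where a 3' kit reads, 0 of the 50-base words of each of the 8 members occurred in another gene. The same share was 42.8% for Gapdh, 45.2% for Pgam1, 40% for Pgk1, 14.1% for Aldoa and 10.7% for Ldha. Values of these somatic paralogs are thus uncertain where reads could be split with the genes that share the words. These genes include pseudogenes and, for Aldoa, the member Aldoart1, in a part outside its last 500 bases.

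The 250 bases before the RefSeq start (GRCm38.p6), written 5′ to 3′ on the gene's strand, are shown for 2 members at near-equal mP and lP levels in both libraries, Ldhc and Pdha2, and 2 that were lower in the knockout-labelled library, Pgk2 and Pgam2. Capitals mark matches on either strand to TGACG, the core of the cyclic AMP response element, or to AACGG, the core bound by MYB proteins. The regions are chr7:46861013-46861262 (plus strand, the first of its 2 RefSeq starts) for Ldhc, chr3:141212356-141212605 (minus) for Pdha2, chr17:40208610-40208859 (minus) for Pgk2 and chr11:5803797-5804046 (minus) for Pgam2, whose RefSeq start lies upstream of the annotated gene used for counting.
Ldhc: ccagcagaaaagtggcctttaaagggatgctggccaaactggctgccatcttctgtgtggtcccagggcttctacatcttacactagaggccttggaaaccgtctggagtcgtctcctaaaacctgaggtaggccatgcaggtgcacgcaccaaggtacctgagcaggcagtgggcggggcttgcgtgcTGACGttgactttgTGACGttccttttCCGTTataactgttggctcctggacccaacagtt
Pdha2: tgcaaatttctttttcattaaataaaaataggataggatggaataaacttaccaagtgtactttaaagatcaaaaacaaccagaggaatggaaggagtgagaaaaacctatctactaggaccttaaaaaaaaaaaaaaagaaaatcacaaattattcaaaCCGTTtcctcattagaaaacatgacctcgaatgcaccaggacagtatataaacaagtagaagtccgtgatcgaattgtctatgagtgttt
Pgk2: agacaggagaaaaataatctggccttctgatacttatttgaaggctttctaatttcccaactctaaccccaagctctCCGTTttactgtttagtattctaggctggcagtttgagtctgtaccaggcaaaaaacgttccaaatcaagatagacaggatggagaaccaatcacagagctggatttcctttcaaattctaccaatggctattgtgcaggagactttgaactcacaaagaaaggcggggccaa
Pgam2: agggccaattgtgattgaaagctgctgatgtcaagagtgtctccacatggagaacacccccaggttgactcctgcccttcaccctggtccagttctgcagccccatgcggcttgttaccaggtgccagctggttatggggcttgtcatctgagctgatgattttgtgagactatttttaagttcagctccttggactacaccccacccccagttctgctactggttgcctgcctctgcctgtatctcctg
The Ldhc promoter held 2 TGACG matches, 61 to 57 and 47 to 43 bases before the start, then an AACGG match on the minus strand 34 to 30 bases before it. By the coordinates above, the Ldhc and Pgk2 windows run into the annotated genes. The first TGACG match of Ldhc straddles the annotated start of the gene, and its other matches lie within the gene. Pdha2 held 1 AACGG match, 90 to 86 bases before the start, and Pgk2 1, 173 to 169 bases before it, both on the minus strand. Pgam2 held 0 matches to either motif, as did both Gapdhs starts, whereas Eno4 held 2 AACGG matches. The first Hk1 start held 0 matches, and the second held 1 AACGG match on the minus strand, 114 to 110 bases before it. Of 32851 RefSeq promoter windows of this length, 17.8% held TGACG and 14.5% AACGG, so a match to either is common, and a match describes these letters and not a bound factor. The full element TGACGTCA was in 1.55% of windows and in 0 of those of the members. Aldoart1 had no entry in this table.

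Along WT spermatogenesis the 8 genes came on in an order that differed from the order of the enzymes in the pathway. Taking as onset the first stage at 10% of a gene's highest stage, Pdha2 and Eno4 were already past it before pachytene, Ldhc reached it in eP, Pgam2 in mP, Hk1 in lP, Pgk2 in D, Aldoart1 in RS.1 and Gapdhs in RS.2. With cells thinned to 3000 UMIs, Pdha2, Eno4 and Pgam2 reached it in eP together with Ldhc, and Hk1 before pachytene. By mP, 4 of the 8 were at 10% of their peak, whereas 83.1% of the 11722 genes measured in WT were. The peak fell in a spermatid stage for 6 of the 8, against 29.9% of these genes. In UMIs per cell all 8 peaked in a spermatid stage, with Ldhc in RS.1 and Pdha2, Hk1, Pgk2, Aldoart1 and Gapdhs in RS.3. Counts per cell follow depth, and the median WT cell had 7945 UMIs in mP, 14817 in RS.1 and 19631 in RS.3. The share of all genes with a per-cell peak in a spermatid stage was not computed. This count of 8 thus supports no difference from other genes. The 7 elongating spermatid markers summed to 71751 CPM in RS.3 and 336623 CPM in ES, which lowers the CPM of other genes there. With these markers left out of the total, the peak of Pgam2 moved from RS.1 to ES and that of Aldoart1 to RS.3. The onset of Hk1 then moved to MI. Levels of the members are compared between stages and not with each other, since the CPM of a 3' kit is not divided by transcript length.

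**Figure D1:**
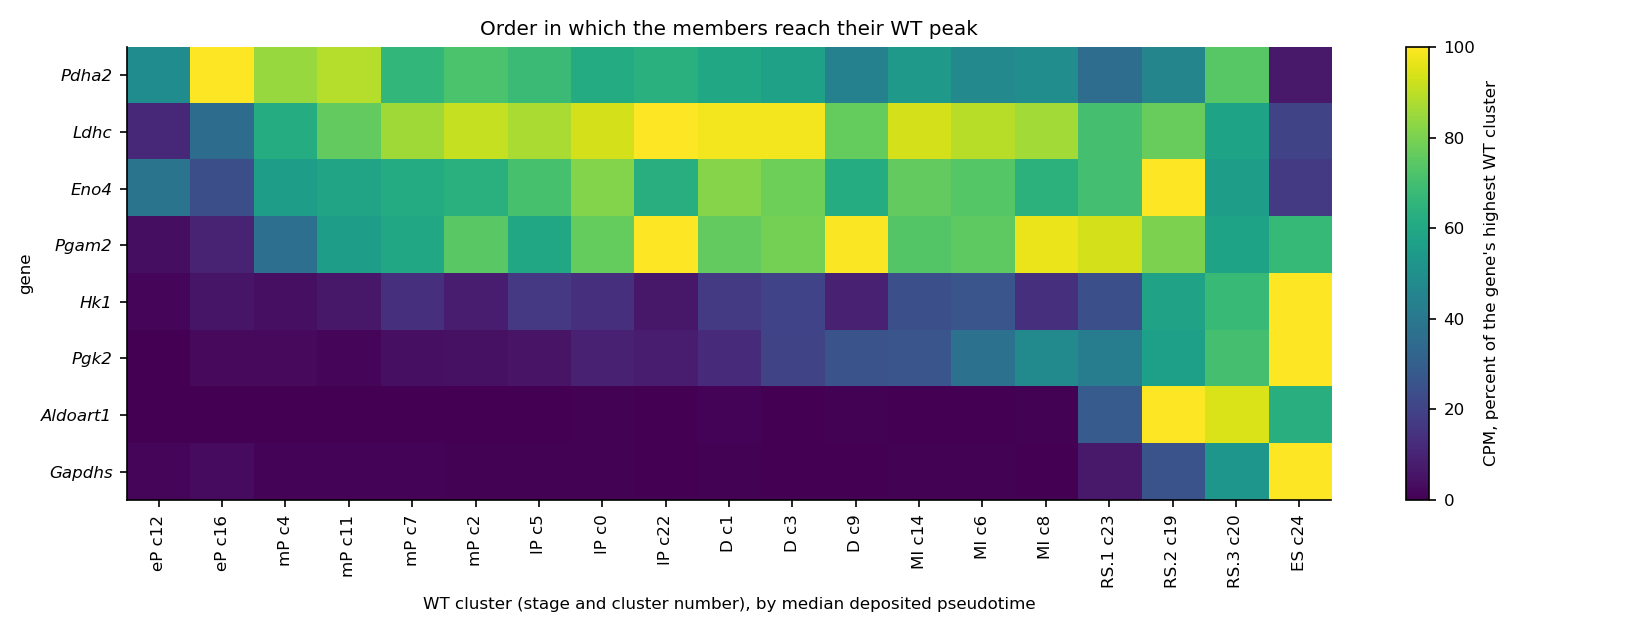
Percent of each gene's highest WT cluster level (colour, CPM) for the 8 members (rows) over WT clusters with at least 50 cells, ordered by median deposited pseudotime (columns: stage and cluster number). Pdha2 is brightest in early pachytene cluster 16, Ldhc in late pachytene cluster 22, and Hk1, Pgk2 and Gapdhs in elongated spermatids.

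The genes at the pyruvate end, Pdha2 and Ldhc, stood at 25% of their peak by eP, as did Eno4 on 9 UMIs. Pdha2 stood at 37.1 CPM before pachytene, 217 in eP, 199 in mP, 164 in lP, 132 in D, 128 in MI, 93.6 in RS.1, 118 in RS.2, 193 in RS.3 and 17.7 in ES. The eP level was 5.84 times the level before it (log2 2.49, interval 1.71 to 3.52), and the level then declined to RS.1, was higher again in RS.3, and was lowest in ES. Ldhc stood at 483 CPM before pachytene, 2547 in eP, 7579 in mP, 8795 in lP, 8043 in D, 8245 in MI, 6584 in RS.1, 7159 in RS.2, 5419 in RS.3 and 1897 in ES. It held a plateau from mP to MI and, in CPM, was 0.350 times as high in ES as in RS.3. Its levels in lP and MI lay close.

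Pgam2 and Eno4, the mutase and the enolase, act one after the other in the pathway and both stood at 50% of their peak by mP. Pgam2 stood at 89.8 CPM before pachytene, 137 in eP, 1090 in mP, 1457 in lP, 1611 in D, 1536 in MI, 1690 in RS.1, 1446 in RS.2, 1048 in RS.3 and 1208 in ES. The mP level was 7.97 times the eP level (log2 2.99, interval 2.74 to 3.26), the largest step of this gene. Eno4 was low throughout, at 6.19 CPM before pachytene (2 UMIs), 10.0 in eP, 21.2 in mP, 26.2 in lP, 24.5 in D, 24.3 in MI, 24.5 in RS.1, 34.9 in RS.2, 19.4 in RS.3 and 5.89 in ES. Its levels from lP to RS.1 did not differ beyond counting error between neighbouring stages, and ES held only 5 UMIs. Its early onset rests on 2 UMIs.

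Hk1 and Pgk2 had their highest CPM in the last stage, while in UMIs per cell both were highest in RS.3 (2.81 for Hk1 and 5.99 for Pgk2) and lower in ES (1.61 and 3.29). Hk1 stood at 18.6 CPM before pachytene (6 UMIs), 8.90 in eP (8 UMIs), 16.5 in mP, 25.4 in lP, 28.5 in D, 42.7 in MI, 51.3 in RS.1, 121 in RS.2, 142 in RS.3 and 211 in ES. Its lP and D levels did not differ beyond counting error, and the largest step was from RS.1 to RS.2, at 2.36-fold (log2 1.24, interval 1.06 to 1.42). Its 6 UMIs before pachytene were all in spermatogonia, and the onset moved with the setting, from the pooled early stage to RS.2 (at 25% of the peak). Pgk2 stood at 3.1 CPM before pachytene (1 UMI), 7.78 in eP (7 UMIs), 15.6 in mP, 35.1 in lP, 91.2 in D, 174 in MI, 181 in RS.1, 243 in RS.2, 303 in RS.3 and 430 in ES. Its steps were 2.24-fold from mP to lP, 2.60-fold from lP to D (log2 1.38, interval 1.20 to 1.56) and 1.90-fold from D to MI, while MI and RS.1 did not differ beyond counting error. Within diplotene its 3 clusters stood at 50.7, 88.0 and 110 CPM in order of pseudotime, and within MI at 113, 161 and 204 CPM, so the increase ran through both stages.

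Aldoart1 and Gapdhs were spermatid genes. Aldoart1 had 0 UMIs before pachytene, in eP and in mP, 1 in lP, 8 in D and 4 in MI, and then 81 in RS.1 (12.9 CPM), 416 in RS.2 (44.7 CPM), 328 in RS.3 (42.2 CPM) and 24 in ES (28.3 CPM). The RS.1 level was 110 times the MI level (log2 6.61, interval 5.36 to 8.69). Gapdhs stood at 15.5 CPM before pachytene (5 UMIs), 14.5 in eP (13 UMIs), 4.53 in mP, 3.01 in lP, 2.45 in D, 2.65 in MI, 41.7 in RS.1, 156 in RS.2, 317 in RS.3 and 604 in ES. RS.1 was 15.8 times MI (log2 3.97, interval 3.63 to 4.34), and each later stage was again higher by 1.90-fold to 3.73-fold.

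**Figure D2:**
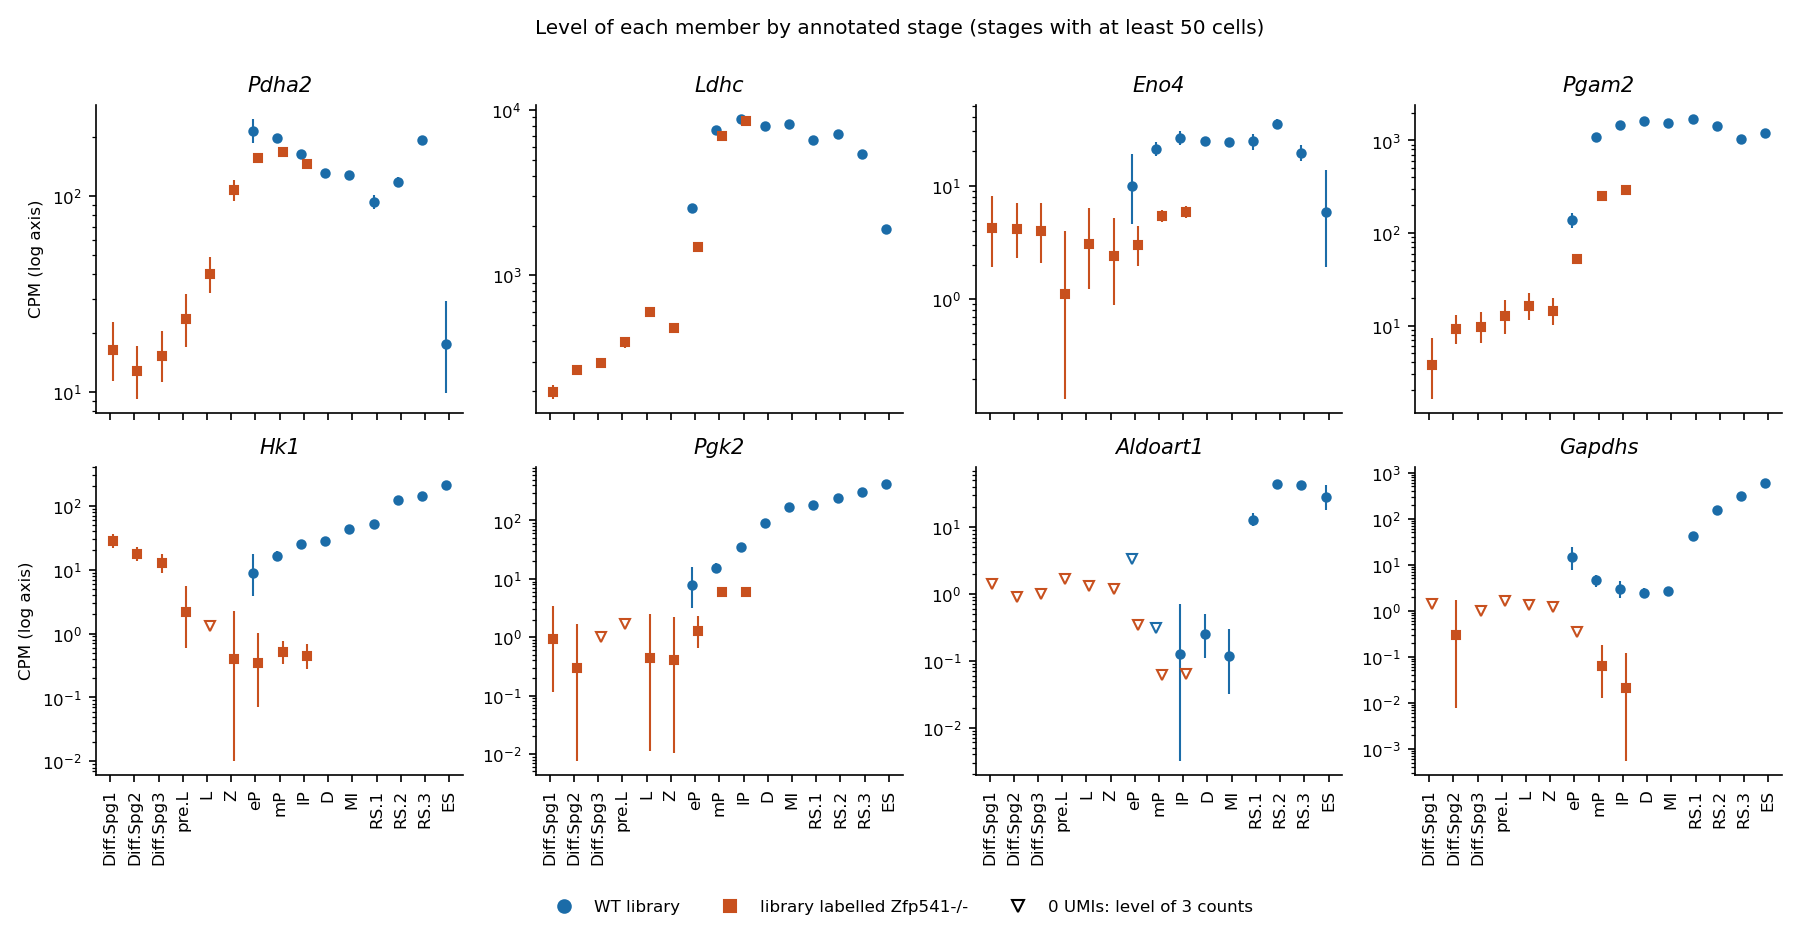
Level of each gene by annotated stage (CPM, log axis) in stages with at least 50 cells: circles are the WT library, squares the knockout-labelled library, bars the 95% Poisson interval, and open triangles mark 0 UMIs at the level that 3 counts would give. In mP and lP the squares of Ldhc and Pdha2 lie near the circles, and those of Eno4, Pgam2, Hk1 and Pgk2 lie below them.

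Droplets also capture free RNA, and in WT the spermatid transcripts were present in every stage. The summed UMIs of 7 elongating spermatid markers, protamine and transition protein genes among them, were 1.55 per WT cell before pachytene, 3.15 in eP, 2.32 in mP, 2.19 in lP, 2.90 in D and 2.69 in MI, and then 15.1 in RS.1 and 2576 in ES. In the knockout-labelled library they were 0.0256 per mP cell and 0.0308 per lP cell. Gapdhs stood in WT at 0.0410, 0.0565, 0.0365, 0.0290, 0.0345 and 0.0384 UMIs per cell in the same stages up to MI, and at 0.787 in RS.1. Per 1000 elongating marker UMIs, Gapdhs had 26.5, 18.0, 15.7, 13.3, 11.9 and 14.3 UMIs in these stages up to MI. It then had 52.0 in RS.1, 58.3 in RS.2, 4.42 in RS.3 and 1.79 in ES. The share of free RNA in these Gapdhs counts was not tested. Hk1 had 0.0348 UMIs per WT cell in eP, 0.133 in mP, 0.245 in lP, 0.401 in D and 0.619 in MI. Per 1000 elongating marker UMIs, Hk1 had 57.1 UMIs in mP, 112 in lP, 63.9 in RS.1, 45.4 in RS.2, 1.98 in RS.3 and 0.626 in ES. Pgk2 had 54.2, 155, 226, 91.0, 4.22 and 1.28 in the same stages. The share of free RNA in the Hk1 and Pgk2 counts was not tested.

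**Figure D3:**
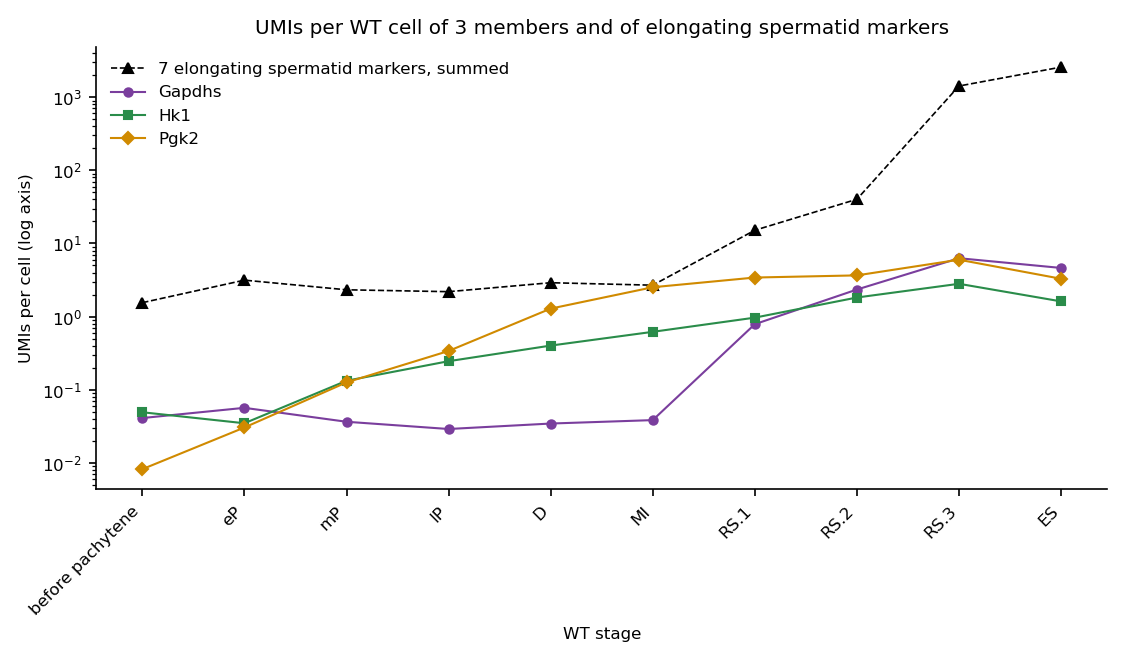
UMIs per WT cell (log axis) of Gapdhs, Hk1 and Pgk2 and of the 7 elongating spermatid markers summed (triangles) by WT stage. Gapdhs stays between 0.0290 and 0.0565 UMIs per cell up to MI, whereas Hk1 and Pgk2 climb from eP to MI while the markers stay between 1.55 and 3.15.

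In mid and late pachytene the members split into those at near-equal levels in the libraries and those several-fold lower in the knockout-labelled library. Genes were taken as measured with at least 10 CPM in the higher library and counted as lower at a ratio of at least 2-fold. In mP, 4 of the 6 measured members were lower (Hk1, Pgk2, Pgam2 and Eno4), where 10.6% of the 7701 measured genes were. In lP the count was again 4 of 6, for these 4 genes, where 14.3% of 7635 genes were lower. No member was higher by 2-fold in either stage (0 of 6), where 15% of genes in mP and 17.4% in lP were. Hk1, Pgk2 and Eno4 passed the 10 CPM minimum through WT alone, so the counts describe these members and support no difference from other genes, and at a minimum of 50 CPM the count was 1 in each stage, Pgam2. The libraries mixed the lP clusters differently, with 107, 486 and 234 WT cells in clusters 5, 0 and 22 against 884, 959 and 102, and with the clusters at equal weight the log2 ratios in lP were -6.32 for Hk1, -2.15 for Pgk2, -2.13 for Pgam2 and -2.36 for Eno4. The median log2 ratio over all measured genes was 0.15 in mP and 0.11 in lP.

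Among the members measured at 10 CPM in mP and lP, Hk1 had the lowest ratio. In mP it had 160 UMIs in WT (16.5 CPM) and 25 in the knockout-labelled library (0.512 CPM), 32.1-fold lower (log2 -4.98, interval -5.68 to -4.39). In lP it had 203 UMIs (25.4 CPM) and 21 UMIs (0.448 CPM), 56.8-fold lower (log2 -5.80, interval -6.55 to -5.18). Each of the 7 mP and lP clusters showed the same direction, with log2 ratios from -6.38 to -3.04. The knockout-labelled library did contain Hk1 transcripts in spermatogonia, at 28.2 CPM in Diff.Spg1, 17.6 in Diff.Spg2 and 12.7 in Diff.Spg3, then 2.20 in pre.L, 0 UMIs in L and 0.401 CPM in Z. Its level there after Z stayed between 0 and 0.803 CPM, so the increase that WT showed from mP to lP had no counterpart at this depth. These counts are of the whole gene and do not separate its testis transcripts from the others.

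Pgam2 was 4.32-fold lower in mP, at 1090 CPM in WT and 253 CPM in the knockout-labelled library (log2 -2.11, interval -2.15 to -2.07). In lP it was 5.01-fold lower, at 1457 and 291 CPM (log2 -2.32, interval -2.36 to -2.29). Over the 7 clusters the log2 ratio ran from -2.19 to -1.89. The gene was still induced in the knockout-labelled library, from 14.4 CPM in Z to 34.0 in eP cluster 12, 77.6 in eP cluster 16, 253 in mP and 291 in lP. After thinning each cell to 3000 UMIs, 92.9% of WT and 50.8% of knockout-labelled mP cells held a Pgam2 UMI (98.8% and 94.4% unthinned), with 1.85% (3.21% unthinned) in knockout-labelled Diff.Spg1 cells as background. The median depths of these cells were 7945, 18665 and 9280.5 UMIs, and 7, 3 and 2 cells were too shallow to thin. That background is of the knockout-labelled library alone. Of WT cells before pachytene, 25.7% of 35 thinned cells held a Pgam2 UMI (20.5% of 122 unthinned), and 87 were too shallow to thin. In the knockout-labelled library the share before pachytene was 2.99% (4.77% unthinned).

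Eno4 was 3.93-fold lower in mP, at 21.2 and 5.39 CPM (206 and 263 UMIs, log2 -1.98, interval -2.24 to -1.70), and 4.43-fold lower in lP, at 26.2 and 5.91 CPM (log2 -2.15, interval -2.41 to -1.88). In the knockout-labelled library it stayed between 1.10 and 5.91 CPM from Diff.Spg1 to lP, with no step between neighbouring stages beyond counting error. Its log2 ratios over the 7 clusters ran from -3.02 to -1.68.

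Pgk2 differed by stage. In mP it stood at 15.6 CPM in WT (152 UMIs) and 5.90 in the knockout-labelled library (288 UMIs), 2.65-fold lower (log2 -1.41, interval -1.69 to -1.11), a ratio that was -0.91, short of 2-fold, with cells thinned to 3000 UMIs. In lP it stood at 35.1 and 6.06 CPM (280 and 284 UMIs), 5.79-fold lower (log2 -2.53, interval -2.78 to -2.29). The knockout-labelled library showed a step into mP, 5.52-fold over eP cluster 16 (log2 2.30, interval 1.09 to 4.35, from 4 UMIs), and none from mP to lP (log2 0.04, interval -0.20 to 0.28), where WT increased by 2.24-fold. In mP cluster 11 the libraries did not differ beyond counting error (8.04 and 6.89 CPM, log2 -0.26, interval -1.11 to 0.77), and in lP cluster 0 the log2 ratio was -2.49. Thinned to 3000 UMIs, 9.82% of WT and 1.59% of knockout-labelled lP cells held a Pgk2 UMI, against 28.1% and 13.4% unthinned, with 0.463% (0.917% unthinned) in knockout-labelled Diff.Spg1 cells. The median depths of the lP cells were 9210 and 23690 UMIs.

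Ldhc and Pdha2 were near equal. Ldhc stood at 7579 and 7003 CPM in mP (log2 -0.11, interval -0.13 to -0.10). In lP it stood at 8795 and 8533 CPM (log2 -0.04, interval -0.06 to -0.03), a sign that turned to 0.05 when scaled by the median of ratios and to 0.07 by TMM, so it has no direction in lP. In lP clusters 0 and 22 it was higher in the knockout-labelled library, by 0.04 and 0.14 on the log2 scale, and in the other 5 clusters its ratio lay between -0.14 and -0.03. Pdha2 stood at 199 and 169 CPM in mP (log2 -0.24, interval -0.31 to -0.16) and at 164 and 147 CPM in lP (log2 -0.16, interval -0.25 to -0.07). These differences exceeded counting error in the stage sums but were far smaller than those of the 4 lower members, and whether they exceed the variation between mice cannot be told with 1 library each.

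Gapdhs and Aldoart1 were below 10 CPM in mP and lP of both libraries. Gapdhs had 44 UMIs in WT mP and 3 in knockout-labelled mP, and 24 and 1 in lP (log2 -6.58, interval -12.50 to -4.52); the elongating markers moved the same way, at 2.32 and 0.0256 UMIs per cell in mP. Aldoart1 had 0 UMIs in both libraries in mP, which allows up to 0.309 CPM in WT and 0.0615 CPM in the other, and 1 and 0 UMIs in lP.

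**Figure D4:**
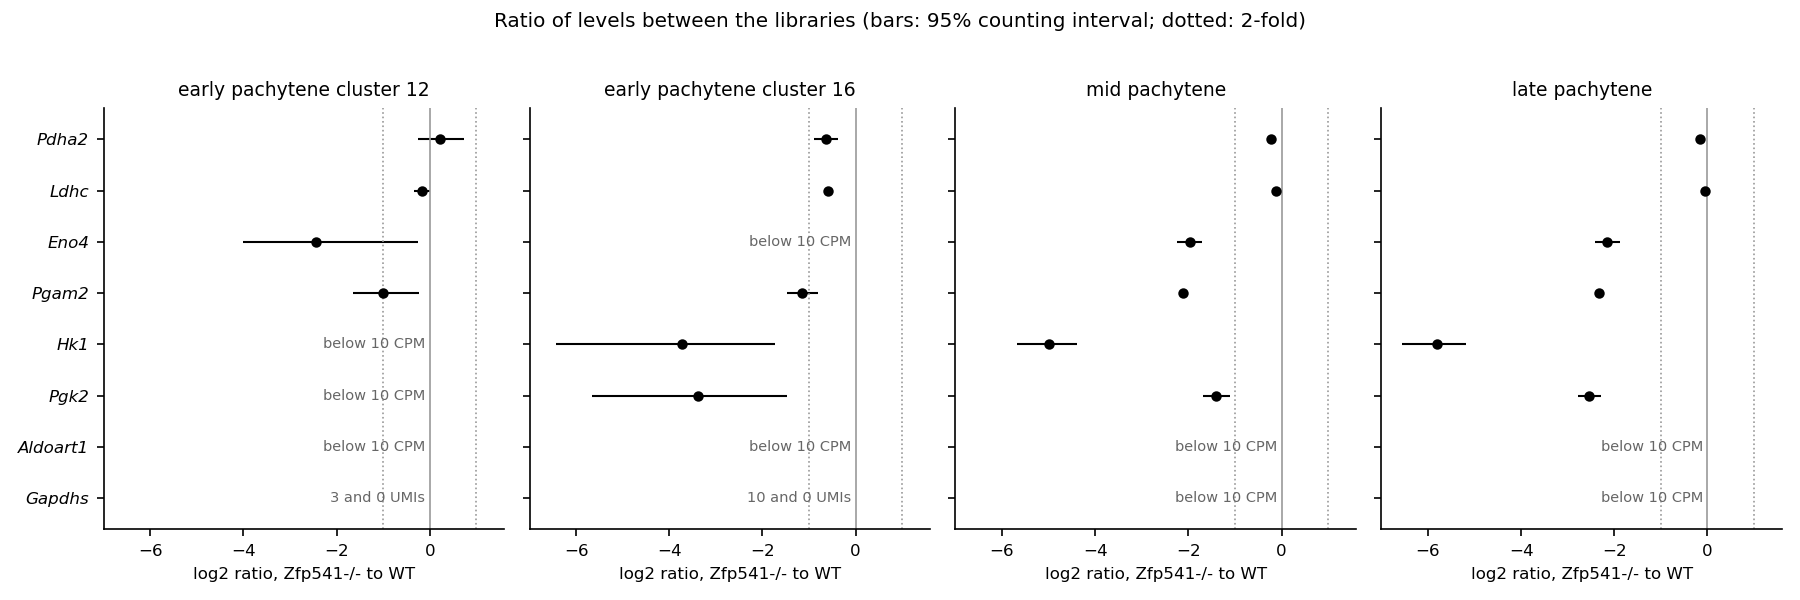
Log2 ratio of the knockout-labelled to the WT library for each gene in eP cluster 12, eP cluster 16, mP and lP (points, with the 95% counting interval as bars; dotted lines mark 2-fold). Ldhc and Pdha2 lie near 0 in mP and lP, while Pgam2, Eno4, Pgk2 and Hk1 lie left of the 2-fold line in both.

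Marker sums of earlier and later stages also differed between the libraries in pachytene, and those of earlier stages went in both directions. The 8 markers of diplotene and meiotic division summed to 677 CPM in WT and 362 CPM in knockout-labelled mP, and to 655 and 306 CPM in lP. The 8 round spermatid markers summed to 82.2 and 55.4 CPM in mP, and to 93.6 and 62.3 CPM in lP, with all 8 detected in WT and 6 in the knockout-labelled library. The 8 leptotene-zygotene markers were also lower in the knockout-labelled library, at 3078 and 2088 CPM in mP and 1536 and 1188 CPM in lP. The 10 spermatogonium markers were higher there, at 21.7 and 37.0 CPM in mP and 8.77 and 46.2 CPM in lP, as were the 6 preleptotene markers, at 21.2 and 60.4 CPM in mP and 15.7 and 47.1 CPM in lP. The 10 pachytene markers were near equal in lP as in mP, at 4233 and 4048 CPM. The part of these shifts in the ratios of Hk1, Pgk2, Pgam2 and Eno4 was not tested beyond the comparison within clusters.

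Early pachytene was compared within its clusters 12 and 16, each of which had the spermatogonium marker Sohlh2 and 0 pachytene markers among its 10 leading genes. WT held only 75 cells in cluster 12 and 155 in cluster 16, against 713 and 451. In cluster 12, 3 of 5 measured members were at least 2-fold lower in the knockout-labelled library, where 8.77% of 7915 genes were, and in cluster 16, 4 of 6, where 8.7% of 7881 were; 0 members were higher, where 14.4% and 20.4% of genes were. The count in cluster 16 was 2 with thinned cells, 2 with per-cell means, 1 without the 5% of cells with most UMIs and 1 at a minimum of 50 CPM, and that in cluster 12 was 1 at 50 CPM. Most of the lower members passed the minimum through WT alone, so these counts describe them and support no difference from other genes. Pgam2 was lower in both, at 67.0 and 34.0 CPM in cluster 12 (log2 -1.01, interval -1.65 to -0.23) and 171 and 77.6 CPM in cluster 16 (log2 -1.15, interval -1.47 to -0.80). In UMIs per cell Pgam2 was near equal, at 0.267 and 0.231 in cluster 12 and 0.665 and 0.643 in cluster 16. The median UMI count per cell was 2.20 times as high in the knockout-labelled library in cluster 12 and 2.30 times in cluster 16. Near-equal counts per cell at that depth thus go together with the lower CPM. Before pachytene Pgam2 already stood higher in WT, at 0.238 UMIs per cell (29 UMIs) against 0.0511 (164 UMIs). The part of free RNA in these Pgam2 counts was not tested. Hk1 (7 and 3 UMIs, log2 -3.74, interval -6.44 to -1.73) and Pgk2 (7 and 4 UMIs, log2 -3.37, interval -5.66 to -1.47) were lower in cluster 16 on few counts. The 7 WT UMIs of Hk1 came from 3 of 155 cells, and with cells thinned to 3000 UMIs its log2 ratio turned to 0.29. Eno4 was lower in cluster 12, with 4 WT and 13 knockout-labelled UMIs (log2 -2.44, interval -4.02 to -0.25), and below 10 CPM in cluster 16. Gapdhs was detected in WT alone, with 3 UMIs in cluster 12 and 10 UMIs in cluster 16. The 10 UMIs came from 3 of 155 cells. The WT cells of cluster 12 and cluster 16 also held 1.55 and 3.92 elongating marker UMIs each, against 0.0154 and 0.0266 in the other library, and the part of free RNA in this difference was not tested. Without Gapdhs the counts would be 2 of 4 and 3 of 5. Ldhc was lower in cluster 16 (3276 and 2185 CPM, log2 -0.58, interval -0.66 to -0.51), as was Pdha2 (261 and 167 CPM, log2 -0.65, interval -0.90 to -0.38), while in cluster 12 Pdha2 did not differ beyond counting error (127 and 149 CPM).

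In the knockout-labelled library, which alone holds enough cells before pachytene, the onset of the early members could be followed from spermatogonia. Pdha2 stood at 16.5 CPM in Diff.Spg1, 12.8 in Diff.Spg2, 15.4 in Diff.Spg3, 23.7 in pre.L, 40.0 in L, 108 in Z, 149 in eP cluster 12 and 167 in eP cluster 16, with its largest step from L to Z, 2.69-fold (log2 1.42, interval 1.08 to 1.78). Ldhc stood at 198, 267, 294, 395, 599, 481, 962 and 2185 CPM in the same order, with its largest step from eP cluster 16 to mP, 3.21-fold. The step of Pdha2 thus came earlier than that of Ldhc, and relative to 1000 Ldhc UMIs Pdha2 had 66.9 UMIs in L, 224 in Z and 24.2 in mP. Ldhc is abundant, and its 75.2% of Diff.Spg1 cells with a UMI (40.7% at 3000 UMIs) may include free RNA, whose part was not tested. Pgk2 had 5 UMIs in all 3210 cells before pachytene, Gapdhs 1, and Aldoart1 0.

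Pdha2, Pgk2 and Pgam2 came to make up nearly all UMIs of their enzyme pair, Pdha2 by Z and both Pgk2 and Pgam2 by mP. Shares below are shares of the UMIs of the pair and depend on where each transcript is primed. Pdha2 made up 39.8% of Pdha1 and Pdha2 UMIs in knockout-labelled Diff.Spg1 cells, 63.2% in pre.L, 77.8% in L and 96.1% in Z, and 99.8% in eP. Pgk2 made up 1.34% of the Pgk1 and Pgk2 UMIs in knockout-labelled spermatogonia and 98.1% (WT) and 92.0% (knockout-labelled) in mP. In lP its share was 96.6% and 82.1%, with Pgk1 at 1.25 and 1.32 CPM, a difference within counting error. Pgam2 made up 98.3% of the Pgam1 and Pgam2 UMIs in WT mP and 93.2% in the other library, where Pgam1 stood at 18.6 and 18.4 CPM. Hk1 made up all 160 hexokinase 1 and 2 UMIs in WT mP and 25 of 36 in knockout-labelled mP, with Hk2 at 0 UMIs in WT and 11 in the other.

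Gapdh gave way to Gapdhs only after meiosis. Gapdhs made up 12.9% of the UMIs of the pair in WT MI, 57.8% in RS.1, 90.7% in RS.2, 96.2% in RS.3 and 98.3% in ES. In mP Gapdh stood at 39.0 CPM in WT and 159 CPM in the knockout-labelled library (log2 2.02, interval 1.88 to 2.18), and in lP at 26.1 and 94.4 CPM (log2 1.85, interval 1.66 to 2.06). In the knockout-labelled library Gapdh was 839 CPM in Diff.Spg1 and 34.8 CPM in L, and higher again in early pachytene. It stood there at 456 CPM in eP cluster 12 and 505 CPM in eP cluster 16. WT stood at 67.0 CPM in cluster 12 (log2 2.73, interval 2.14 to 3.48) and 105 CPM in cluster 16 (log2 2.26, interval 1.91 to 2.65). Later in WT, Gapdh was 17.8 CPM in MI and 10.6 CPM in ES.

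The aldolase and lactate dehydrogenase families kept their other members. Aldoart1 made up 6.48% of the Aldoa, Aldoart1 and Aldoart2 UMIs in RS.1 and 2.71% in ES, where Aldoart2, a second aldolase retrogene, stood at 668 CPM and Aldoa at 348 CPM. Some 3' sequence of Aldoa also occurs in Aldoart1, so these shares are uncertain. Aldoart2 was at 2.53 CPM in MI and 123 in RS.1, the same stage at which Aldoart1 appeared. In mP Aldoa stood at 32.3 and 27.3 CPM (log2 -0.24, interval -0.42 to -0.06), Aldoart2 at 3.70 and 0.676 CPM and Aldoc at 2.67 and 1.17 CPM. Ldhc made up 89.9% of the Ldha and Ldhc UMIs in WT mP and 85.5% in the other library, and Ldha stood at 852 and 1187 CPM (log2 0.48, interval 0.45 to 0.51). Ldhb had 5 and 15 UMIs. Eno4 made up 15.8% of all enolase UMIs in WT mP and 4.30% in the other library, where Eno1 stood at 57.9 and 74.1 CPM, Eno3 at 54.5 and 45.7 CPM and Eno2 at 4 and 8 UMIs.

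**Figure D5:**
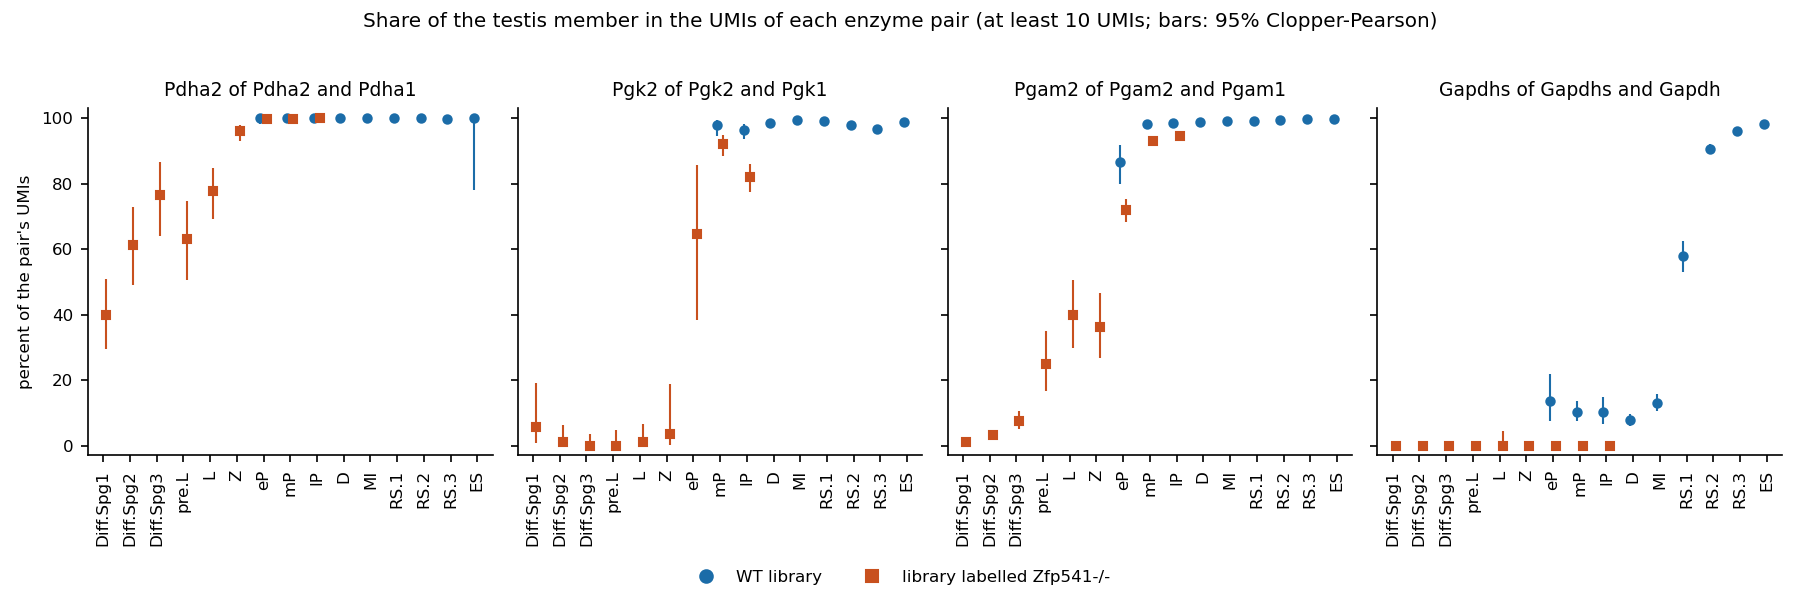
Percent of the UMIs of each enzyme pair that came from the testis member, by annotated stage with at least 50 cells and 10 UMIs (circles WT, squares knockout-labelled, bars 95% Clopper-Pearson interval). Pdha2 passes 90% in Z and Pgk2 and Pgam2 in mP, while Gapdhs first passes 50% in RS.1; in lP the knockout-labelled Pgk2 share is 82.1%.

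Beyond the members, a list of 57 genes of glucose and lactate transport, glycolysis and pyruvate use was examined, of which 56 were analysed. In mP, 25 were measured, 4 were at least 2-fold lower and 3 higher, with a median log2 ratio of -0.14. In lP, 25 were measured, 4 were lower and 3 higher, with a median of -0.35. The shares of lower genes in the list lie near the 10.6% and 14.3% of all measured genes. Slc2a8, a glucose transporter, was lowest in both, at 13.0 and 0.328 CPM in mP (log2 -5.27, interval -6.16 to -4.55) and 16.7 and 0.171 CPM in lP (log2 -6.53). Bpgm, bisphosphoglycerate mutase, was 79.4 and 28.6 CPM in mP (log2 -1.47) and 78.3 and 26.6 CPM in lP (log2 -1.56). Pfkfb4, which makes fructose 2,6-bisphosphate, was 14.5 and 6.78 CPM in mP (log2 -1.10) and 16.4 and 7.08 CPM in lP (log2 -1.22). Pdk2, a kinase that inhibits pyruvate dehydrogenase, was 17.2 and 2.05 CPM in lP (log2 -3.07). Ldhal6b, a lactate dehydrogenase retrogene named after its value was seen, was the other lower gene in mP (1565 and 774 CPM, log2 -1.02). The higher genes were Slc16a1, a monocarboxylate transporter (3.29 and 14.6 CPM, log2 2.13), Gapdh and Gpi1, glucose-6-phosphate isomerase (12.1 and 38.8 CPM, log2 1.67), in mP, and Gapdh, Gpi1 (12.03 and 41.8 CPM, log2 1.79) and Dld, a subunit of pyruvate dehydrogenase (49.5 and 100.1 CPM, log2 1.01), in lP. Slc2a8, Pfkfb4 and, in lP, Pdk2 passed the 10 CPM minimum through WT alone. Slc16a1 passed it through the knockout-labelled library alone. The counts of this list thus describe its genes and support no difference from other genes.

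For each member above 50 CPM in some WT stage, the genes with the most similar WT pattern were sought among 5521 genes by Pearson r of log2(CPM + 1) over 9 stages, which share 1 library. They were Sav1 (0.991), Srsf5 (0.977) and Arl1 (0.976) for Pdha2, and Il4i1 (0.996), Stkld1 (0.994) and Ggnbp1 (0.991) for Ldhc. For Pgam2 they were 1700074P13Rik (0.988), Proscos (0.988) and 1700029F12Rik (0.987), and for Hk1 Spa17 (0.988), Dbil5 (0.987) and Akap12 (0.986). For Pgk2 they were Cystm1 (0.989), Ankrd60 (0.987) and Fam104a (0.977), and for Gapdhs Tssk3 (0.998), Fam71e1 (0.997) and Vasp (0.996). The neighbours of Gapdhs, Hk1 and 1 of Pgk2 had their highest level in ES, and those of Pgam2 in RS.1. The r values describe these 9 points only.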

How the data were processed

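The deposited matrices hold whole-number UMI counts per gene and cell barcode, made with Cell Ranger 3.1.0 on mm10 and analysed with Seurat 3.2.0, per the submitters' processing notes. Stage, cluster, percent of mitochondrial UMIs and a pseudotime score of each cell were deposited in a table, per the file headers. No annotated cell had under 1000 genes or over 10% mitochondrial UMIs, read from the values. Genes were placed with GENCODE vM21 (30934 of 31053 identifiers matched), and promoter sequences came from RefSeq GRCm38.p6.

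UMIs were summed per stage and library. Ratios had 0.5 counts added to each sum. Intervals are at the 95% level: exact Poisson for levels, Clopper-Pearson for shares and exact conditional binomial for ratios. A count of 0 was read as allowing 3 counts. The script was tested on simulated data. No doublet caller was run, and an alternative left out the 5% of cells with most UMIs. The libraries share 17 annotated barcodes. Stages needed 50 cells per library. Among the 10 leading genes per cluster, 0 markers of any list stood in the mP and lP clusters. Diplotene cluster 3 had the pachytene marker Pou5f2 and MI cluster 6 the Leydig marker Insl3.

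The members and gene lists were chosen with earlier results of these data known. Named genes are the members, their paralogs, the 3 lowest and 3 highest pathway genes in mP and lP, the 3 genes most like each member, Zfp541 and markers. Alternatives covered scaling (median of ratios, TMM from edgeR 4.0.16), filters on low levels, the added count, thinning, per-cell means, mitochondrial and depth cuts, clusters or pseudotime bins at equal weight and the fold threshold. Python 3.11.15, numpy 2.4.6, scipy 1.17.1, pandas 2.3.3 and R 4.3.3 were used.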

Additional observations from a re-analysis of the deposited data

How the results depend on the processing

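Of 82 recomputed counts, 70 stayed within 1.5 times the reported count and 12 did not. With a 50 CPM minimum the members at least 2-fold lower numbered 1 in each of eP cluster 12, eP cluster 16, mP and lP, since only Pgam2 of the lower members passes it. In eP cluster 16 they numbered 2 with thinned cells, 2 with per-cell means and 1 without the 5% deepest cells. The pathway genes lower in mP numbered 11 with no filter and 2 at 50 CPM, and in lP 12, 1, and 7 at 1.5-fold. Of 320 ratios of single members, 288 stayed, 27 moved and 5 reversed. Ldhc in lP reversed to 0.0458 (median of ratios), 0.0658 (TMM), 0.0550 (clusters at equal weight) and 0.00559 (pseudotime bins). Hk1 in eP cluster 16 reversed to 0.29 with thinned cells, and the cause was not tested. In mP and lP the log2 ratio of Hk1 ran from -6.66 to -4.73, of Pgam2 from -2.35 to -2.05, of Eno4 from -2.42 to -1.85 and of Pgk2 from -2.69 to -0.91 over the alternatives. Scaling moved all ratios by -0.19 (median of ratios) in eP cluster 16 and by 0.11 (TMM) in lP. No replicate could be left out, and early pachytene rests on few WT UMIs. No paired analysis was possible because each genotype has 1 library.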

Other observations

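Genes of the pathway that were lower in the knockout-labelled library in pachytene differed in their WT course. Slc2a8 stood at 12.4 CPM before pachytene, 6.67 in eP, 13.0 in mP, 16.7 in lP, 41.1 in D, 89.2 in MI, 61.5 in RS.1, 27.6 in RS.2 and 2.31 in RS.3, so its peak was in the meiotic division and it was low in late spermatids. Bpgm was between 78.3 and 112 CPM from mP to MI and reached 396 CPM in RS.2. Pdk2 stood at 9.98 CPM in mP, 38.9 in MI and 41.2 in RS.2. Ldhal6b had a plateau of 1565 to 2051 CPM from mP to MI and stood at 314 CPM in ES. Slc16a1, which was higher in the knockout-labelled library, was at 34.1 CPM in WT before pachytene (11 UMIs), 21.1 in eP and 0.118 in MI.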
